A study of Homo sapiens with 24 samples.

Results

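SET2 is an established human megakaryoblastic cell line from a myeloproliferative neoplasm, and its growth depends on the tyrosine kinase JAK2. This account describes the SET2 line that persists in BMS911543, a JAK2-selective type I inhibitor, against naive SET2 cells. The comparison is defined by the library names: 3 libraries of the BMS911543 persistent line and 3 of naive cells. These are 6 of the 24 libraries of the series. The comparison and the gene lists below were chosen with earlier results of these data known. The comparison covers 17437 of the 25082 genes in the table, those that reached 10 normalised counts in 3 or more of the 6 libraries. The BMS911543 persistent line was grown continuously with the inhibitor in the medium. A further 3 sets of persistent SET2 cells, kept in CYT387 (momelotinib), INC424 (ruxolitinib) or SAR302503 (fedratinib) with 3 libraries each, serve below only to show where the BMS911543 line differs. A group of 3 libraries of naive cells given the vehicle DMSO for 4 h is a second control, and the untreated naive cells, grown in the same medium without inhibitor, are the first. Every group is the same cell line, the labels give no inhibitor concentrations, and they do not say how many clones a persistent line holds or whether the 3 libraries of a group came from separate cultures. The p-values therefore cover only the spread between these libraries.

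JAK2 sits on the cytoplasmic tails of cytokine receptors such as that for erythropoietin, and its activity phosphorylates STAT transcription factors and also feeds the RAS-ERK and PI3K pathways. STAT5 and STAT3 switch on genes for survival kinases and for SOCS proteins, which feed back on the receptor complex. A type I inhibitor occupies the ATP pocket of the active kinase, and persistent cells are those that grow on in its presence.

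Levels below are normalised counts, given per library or as mean ± SD (n = 3 libraries), and log2 differences are the BMS911543 line minus the group named, naive cells where none is. The 6 libraries held 26252558 to 30730142 reads in genes, recovered from the normalised values. Pearson correlations of log2 values were 0.974 to 0.986 within the 2 groups and 0.919 to 0.933 between them. Megakaryoblast markers were present in both groups: ITGA2B, the platelet integrin alpha IIb, was at 65207, 54842 and 53722 in the BMS911543 line, against 88826, 101744 and 107662 in naive cells, whereas PF4, a late platelet chemokine gene, held 3.02 in 1 library of the line and 0 in the other 5 libraries. Squamous markers summed to 130 to 413 in the BMS911543 libraries and 72.4 to 456 in the naive libraries over 10 genes. Lymphoid markers summed to 158 to 188 in the BMS911543 libraries and 939 to 980 in the naive libraries over 7 genes, most of it CD79A, an immunoglobulin receptor chain (log2 -2.70), and stromal, vessel and macrophage markers to 2058 to 2621 and 3776 to 4729 over 9 genes; their part in the results was not tested. The squamous markers took 0.000465 to 0.00153% of reads in the BMS911543 libraries and 0.489% in library 2 of the CYT387 line, which was left out of the comparison with the other lines. They took 0.103% in SAR302503 library 3 and 0.000511 to 0.0230% in the other 7 libraries of those lines, which were kept. Naive library 1 departed from the other naive libraries at some genes, and its values are given where that matters. In bulk RNA, fewer cells of a type and less RNA per cell cannot be told apart.

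Against naive cells, 6450 of 17437 genes (37.0%) changed in the BMS911543 line at an adjusted p under 0.05 (limma with Benjamini-Hochberg adjustment). Of these, 2870 were higher (16.5% of genes tested) and 3580 lower (20.5%). Falls outnumbered rises most among large differences: 989 genes rose and 1659 fell at least 2-fold, 284 rose and 679 fell at least 4-fold, and 24 rose and 72 fell at least 32-fold. Most differences were small, with the middle of the log2 differences between -0.40 (25th percentile) and 0.41 (75th percentile), a median of 0.02 and a median standard error of 0.18. For 197 genes all 3 BMS911543 libraries and no naive library reached a count of 10, and for 273 genes the reverse held; such genes enter the test through the group where they are high. Against DMSO cells 7739 of 17553 genes tested (44.1%) changed, 3806 upward (21.7%) and 3933 downward (22.4%). Among genes tested against both controls, 6311 were called against naive cells. Of these, 1402 were higher than both controls and 1806 lower than both. A further 242 were higher than naive and lower than DMSO cells, 342 showed the reverse, and 2519 were not called against DMSO. Both comparisons use the same BMS911543 libraries.

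**Figure D1:**
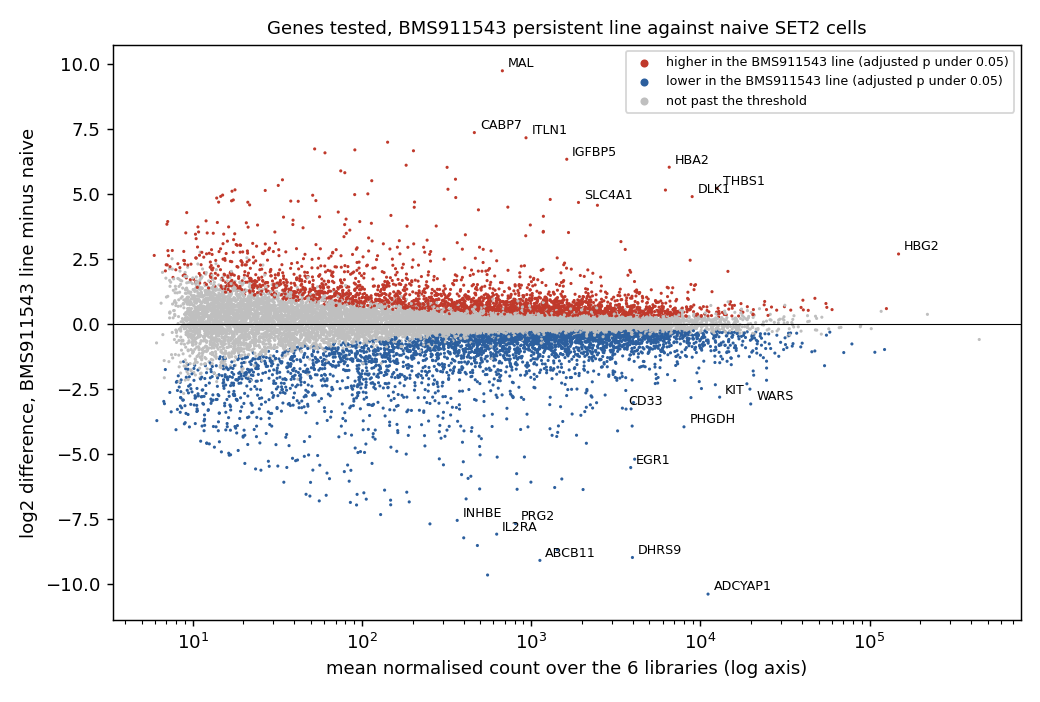
Each point is 1 of 17437 genes: the x axis is the mean normalised count over the 6 libraries (log axis) and the y axis the log2 difference, BMS911543 persistent line minus naive. Red and blue points passed an adjusted p of 0.05 upward (2870) and downward (3580), grey points did not, and the labelled genes run from MAL at 9.73 to ADCYAP1 at -10.40.

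The genes that rose most were nearly silent in naive cells. MAL, a lipid raft proteolipid, was at 1304, 1351 and 1404 in the BMS911543 libraries, against 0, 0 and 3.06 in naive libraries and 2.44, 0 and 0 in DMSO libraries. Only 3 naive reads were seen, so the ratio of 1244 has a 95% counting interval of 425 to 6034. CABP7, a calcium-binding protein, had 919, 816 and 1022 against 3.52, 11.9 and 2.04 in naive cells (log2 7.35, SE 0.46, adjusted p 1.41e-06). ITLN1, a lectin that binds microbial sugars, had 1811, 1948 and 1800.2 against 28.1, 6.47 and 9.17 (log2 7.15, SE 0.41, adjusted p 8.44e-07). Such genes were named only where the groups did not overlap, as was the case for 50.3% of all genes tested. CILP, a cartilage matrix protein, averaged 282 ± 41.4 against 1.75 ± 2.10. IFIT1B, of the IFIT family, had no naive read and 322 in the BMS911543 line, at least 96.4-fold higher against 3 reads over the naive group. For TRPC6, a cation channel with 1 naive read, the ratio was 332 with an interval of 59.3 to 13166.

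Further large rises were of genes with varied roles. GRHL3, an epithelial transcription factor, was at 432, 388 and 378 against 5.86, 0 and 8.15 in naive cells, and the 8 libraries of the other lines used here held 2.30 to 38.7. IGFBP5, which binds insulin-like growth factors, was at 3410.3, 3136 and 3088 against 52.7, 33.4 and 33.6 in naive cells (log2 6.33), but DMSO cells already held 897, 968 and 1064 (log2 1.72 against them). The neuropeptide receptor gene NPY1R was at 628 ± 36.8 against 10.4 ± 6.34. Among genes with a mean of at least 5000, the 5 largest rises were HBA2, THBS1, HBA1, DLK1 and HBG2. THBS1, the platelet adhesion protein thrombospondin 1, was at 24454, 23937 and 25106 in the BMS911543 line, against 7906, 7535 and 7064 with DMSO and 645, 744 and 606 in naive cells. The line lay above both controls, which also lay apart from each other. DLK1, a Notch-ligand-like membrane protein, was at 20584, 17152 and 14251 in the line, 74.1, 60.8 and 64.0 with DMSO and 587, 592 and 554 in naive cells, higher than both controls (log2 4.89 against naive cells). The INC424 line averaged 9636, the CYT387 line (libraries 1 and 3) 8505 and the SAR302503 line 63.9.

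The largest falls were of genes that naive cells expressed clearly. ADCYAP1, the neuropeptide PACAP, was at 8.21, 12.1 and 35.6 in BMS911543 libraries, against 6008, 6347 and 6074 with DMSO and 21812, 21492 and 23311 in naive cells (log2 -10.40, SE 0.39, adjusted p 4.91e-08). ABCB11, the bile salt export pump, averaged 3.27 ± 1.57 against 2253 ± 45.8 in naive cells. DHRS9, a retinol dehydrogenase, averaged 15.1 ± 5.51 against 7931 ± 867. All 3 genes were also lower than in DMSO cells, with log2 differences of -8.55, -7.71 and -8.18. FAT3, an atypical cadherin, averaged 6.11 ± 2.09 against 2854 ± 64.1, and TCN1, a vitamin B12 binder of granules, 1.65 ± 0.642 against 799 ± 203. INHBE, an activin subunit, had 4.56, 1.01 and 4.07 against 808, 673 and 707. MSLN, a surface antigen, and MAS1L, a receptor, each had 2 reads over the BMS911543 libraries, with ratios of 287 (interval 79.1 to 2377) and 263 (interval 72.5 to 2180) of naive cells over the line.

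JAK-STAT target genes were lower in the line or did not pass the test. Of 15 tested, 8 fell and none rose (53.3% called, against 37.0% of all genes; median log2 -0.45, against 0.02). SOCS3, a STAT-induced brake on cytokine receptors, was at 466, 487 and 431 in the BMS911543 line, 2695, 3176 and 3625 with DMSO and 3718, 4214 and 4133 in naive cells (log2 -3.12, SE 0.10, adjusted p 2.22e-08). PIM1, a survival kinase, was at 6645, 5768 and 5190.1, against 8558, 9511 and 9936 with DMSO and 32916, 32870.1 and 34503 in naive cells (log2 -2.52, adjusted p 1.17e-07). IL2RA, the alpha chain of the interleukin 2 receptor, was at 2.74, 4.03 and 4.07 in the line, 213, 214 and 226 with DMSO and 1309, 1186 and 1254 in naive cells. For each of these 3 genes the line lay below every library of both controls. Over all genes, 50.3% did not overlap with naive cells and 52.8% with DMSO cells. IL2RA was named among the largest falls, which had to show no overlap with naive cells. BCL3, an IkB-like co-regulator (log2 -1.12), the suppressor SOCS2 (log2 -1.03), the kinase PIM2 (log2 -0.88) and the survival gene BCL2L1 (log2 -0.45) fell less. SOCS2 and BCL2L1 did not pass against DMSO cells (log2 -0.26 and -0.17, adjusted p 0.0969 and 0.13). CISH, another STAT5-induced suppressor, was at 1391, 1425 and 1362 in the line and 1034, 1278 and 1222 in naive cells, a log2 difference of 0.25 that did not pass (adjusted p 0.109). MYC was at 20502 ± 1130.4 against 23389.9 ± 1535 (adjusted p 0.163; 0.0408 at log2 -0.23 without naive library 1). Against DMSO cells 8 of the 15 were lower (22.4% of all genes) and 2 higher (21.7% of all genes), PIM2 (log2 0.52) and MYC (log2 0.38).

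The inhibitor's own target was more abundant as RNA. JAK2 was at 6724, 6368 and 6525 in the BMS911543 line, against 2725, 2628 and 2356 with DMSO and 4382, 3747 and 3744 in naive cells. The line was above every library of both controls (log2 0.73, SE 0.10, adjusted p 0.000259 against naive cells; log2 1.35 against DMSO), and above the mean of the other persistent lines by 0.87 on the log2 scale (adjusted p 0.000381). JAK1 (log2 0.14), TYK2 (log2 0.20), STAT5A (log2 -0.14) and STAT5B (log2 -0.17) did not pass against naive cells, with adjusted p of 0.276, 0.394, 0.28 and 0.182. JAK3 was at 7479, 7029 and 5974 in the line and 5931, 10319 and 11282 in naive cells, so the spread was mostly that of naive library 1; without that library the difference was -0.67 (adjusted p 0.000129), against -0.38 (adjusted p 0.186) with it.

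Cytokine receptor genes moved both ways. Within the list of JAKs, STATs and receptors, 3 of 31 rose and 14 fell against naive cells (median log2 -0.46; over all genes 16.5% higher and 20.5% lower), and 13 rose and 13 fell against DMSO (median -0.08; over all genes 21.7% and 22.4%). EPOR, the erythropoietin receptor, was at 1577, 1491 and 1478 in the line, 703, 853 and 1004 with DMSO and 718, 996 and 1064 in naive cells (log2 0.73), and the line was above every naive library. The shared beta chain of the interleukin 3, interleukin 5 and GM-CSF receptors, CSF2RB, was at 9546, 8504 and 8512 against 32509, 42676 and 46014 in naive cells (log2 -2.18). IL5RA averaged 1.95 ± 2.02 against 504 ± 22.0, CSF3R 81.0 ± 27.1 against 591 ± 146 (log2 -2.87) and IL4R 2311 ± 329 against 7716 ± 369 (log2 -1.75). Of 13 genes that restrain JAK2 signalling 1 rose and 7 fell against naive cells, and 2 rose and 6 fell against DMSO. The phosphatases PTPN1 (log2 -0.91) and PTPRC (log2 -0.87) fell most and the SUMO ligase PIAS1 rose (log2 0.70). Against DMSO the PTPN1 difference was -0.24 (adjusted p 0.0203, and 0.0938 without BMS911543 library 3), and PTPRC did not pass (log2 0.04, adjusted p 0.702). The stem cell factor receptor gene KIT was at 3285, 3155 and 3196 in the line, 15637, 15822 and 14807 with DMSO and 24656, 22179 and 21612 in naive cells. It fell by far more than the median gene (log2 -2.83), and no library of the line reached either control. Among receptor tyrosine kinases, 3 of 23 rose and 9 fell against naive cells, and 9 of 25 rose and 10 fell against DMSO: KDR, a vascular growth factor receptor, fell (log2 -4.22), and MET, the hepatocyte growth factor receptor, rose to 297, 239 and 236, against 45.7, 42.1 and 20.4 in naive cells (log2 2.87; 1.27 against DMSO, where library 1 held 212).

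Genes that report ERK signalling were low. Of 14 tested, 11 fell and none rose (median log2 -1.22, with 20.5% of all genes lower). Against DMSO cells 9 of 13 fell and none rose (median log2 -0.92, with 22.4% of all genes lower). DUSP6, the phosphatase that switches ERK off and is itself induced by ERK, was at 46.5, 27.2 and 23.4 in the line, against 115, 102 and 131 with DMSO and 816, 729 and 718 in naive cells (log2 -4.56, adjusted p 6.68e-07). The ETS factors ETV4, ETV5 and ETV1 fell (log2 -4.18, -2.19 and -3.94); ETV5 was not lower than with DMSO (log2 0.18, adjusted p 0.388). SPRED1 and SPRY2, which brake the pathway, fell too (log2 -1.50 and -1.04). Immediate early genes split, with 2 of 13 higher and 7 lower against naive cells (median -0.99), and 3 higher and 5 lower against DMSO (median -0.02). Over all genes, 16.5% were higher and 20.5% lower than in naive cells, and 21.7% higher and 22.4% lower than with DMSO. EGR1 was at 211, 172 and 119 in the line, against 833, 1020.2 and 1119.7 with DMSO and 7725, 7169 and 7881 in naive cells (log2 -5.53), and EGR2 (log2 -4.29), EGR3 (log2 -3.42) and FOSL2 (log2 -2.07) also fell; EGR2 did not pass against DMSO (log2 -0.69, adjusted p 0.385). The rises were JUN, at 118 ± 13.3 against 45.0 ± 16.1, and FOSB, at 203, 167 and 66.1 against 27.0, 66.9 and 55.0; library 3 of the line overlaps the naive libraries at FOSB, which lost its call without BMS911543 library 1 (adjusted p 0.112) or 2 (adjusted p 0.104), and JUN was not higher than with DMSO (log2 0.32, adjusted p 0.252). Naive cells held more EGR1 and DUSP6 than DMSO cells did, so part of each difference from naive cells is not seen against the vehicle group.

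**Figure D2:**
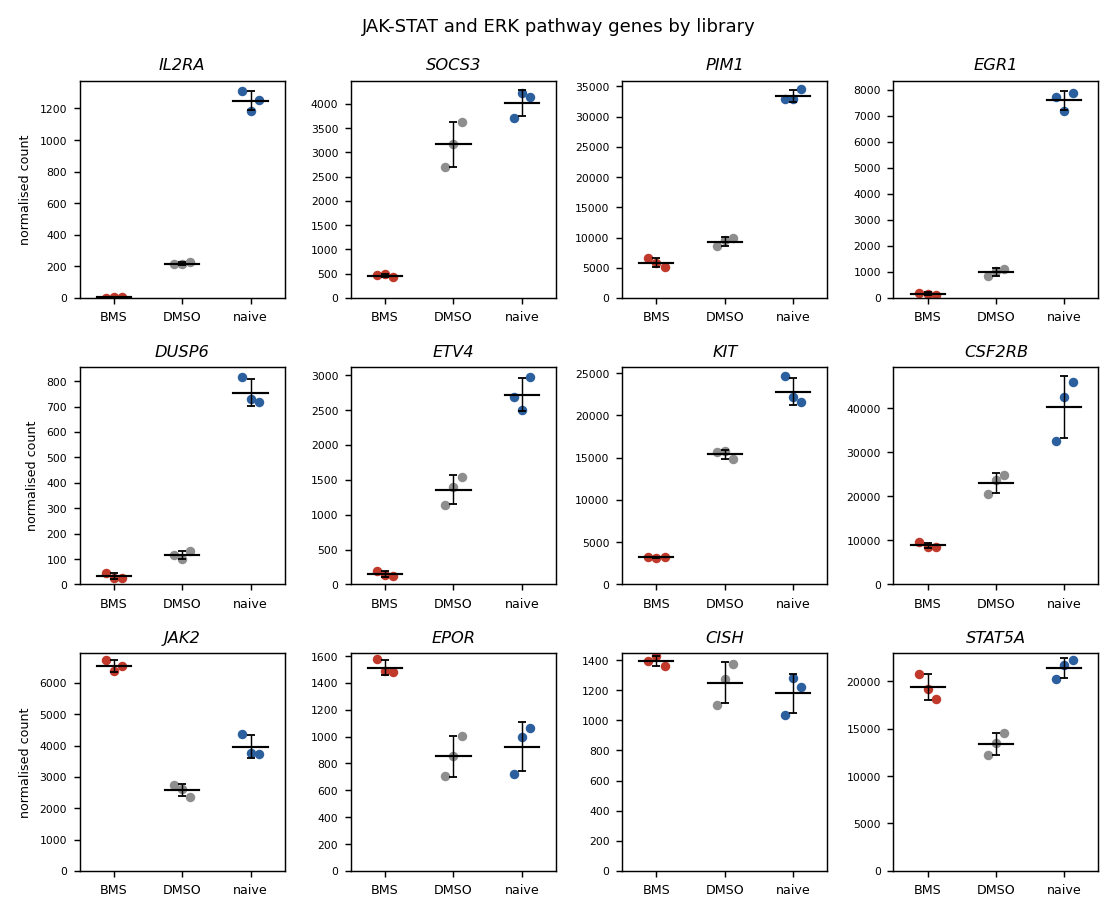
Normalised counts (linear axes from 0) of 12 pathway genes in the BMS911543 persistent line, naive cells given DMSO for 4 h and untreated naive cells, with 3 libraries a group as points, the mean as a bar and the SD as whiskers. IL2RA, SOCS3, EGR1, DUSP6, ETV4 and KIT are lowest in the line and JAK2 and EPOR highest, while the groups lie close at CISH.

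The line carried more red cell RNA. Of 10 globin genes tested, 9 rose and none fell (90.0% called, against 37.0% of all genes; median log2 2.92), and against DMSO cells all 10 rose (median 2.64). HBG2, a fetal gamma globin and the most abundant of them, was at 247004, 275961 and 246855 in the BMS911543 line, against 32982, 34226 and 40025 with DMSO and 42272, 43874 and 34419.8 in naive cells (log2 2.68, SE 0.13, adjusted p 3.42e-07). The alpha globin gene HBA2 was at 13439, 15153 and 10136 against 648, 624 and 803 with DMSO and 220.4, 198 and 170.2 in naive cells (log2 6.02), and HBA1 averaged 12110.2 ± 2277 against 338 ± 20.2. HBE1, the embryonic epsilon globin, averaged 6104 ± 927 against 690.3 ± 165 (log2 3.16), and the embryonic zeta globin HBZ 156 ± 28.0 against 2.58 ± 2.70. In these 5 genes no library of the line overlapped a naive library, as held for 50.3% of all genes. HBG2, HBA2, HBA1 and HBZ were named among the largest rises, which had to show no such overlap. The adult beta globin HBB was at 87.5, 65.4 and 81.3 against 57.4, 46.4 and 82.5 and did not pass (adjusted p 0.359). HBA1 and HBA2, and HBG1 and HBG2, are near-identical copies, so how reads were split within each pair is uncertain.

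Membrane and haem genes of red cells moved with the globins. Of 21 red cell membrane genes 15 rose and 3 fell against naive cells (median log2 0.94; 16.5% of all genes higher), and 12 rose and 3 fell against DMSO (median 0.55; 21.7% of all genes higher). SLC4A1, the red cell anion exchanger, was at 4052, 3316 and 3632 in the line, 48.0, 55.9 and 47.4 with DMSO and 105, 155 and 179 in naive cells (log2 4.66, adjusted p 6.82e-08). SPTB, a spectrin chain, averaged 5867 ± 506 in the line and 1609 ± 79.1 in naive cells. The glycophorin genes GYPB and GYPE, related copies that can share reads, rose by 2.69 and 2.23 on the log2 scale. The list of haem synthesis and iron genes had 13 of 20 higher and 3 lower against naive cells (median 0.68), and 14 higher and 2 lower against DMSO (median 0.49). Among them ALAS2, the first enzyme of erythroid haem synthesis, averaged 2171 ± 122 against 784 ± 38.6, FECH, which inserts the iron, 2031 against 833, and HMOX1, which breaks haem down, 2804 ± 112 against 655 ± 60.1. TFRC, the transferrin receptor, was at 64258, 62336 and 62383 in the line, 47060.3, 46236 and 41570.3 with DMSO and 35569, 30796 and 29969 in naive cells, and it was the line, not the controls, that stood highest.

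Lineage transcription factors did not move as a block. Of 22, 7 rose and 8 fell against naive cells (median log2 -0.04), and 9 rose and 6 fell against DMSO (median 0.12). That is 68.2% called against each control, with 37.0% of all genes called against naive cells and 44.1% against DMSO. GATA2, a stem and progenitor factor, was at 9067, 8029.6 and 7873 in the line, 21291, 25162 and 28211 with DMSO and 27656, 35787 and 35644 in naive cells (log2 -1.98). GATA1, the master factor of red cells and platelets, was at 6943 ± 1396 against 7791 ± 434 and did not pass (adjusted p 0.329). ZFPM1, its partner FOG1, rose (log2 1.48) against naive cells but not against DMSO (log2 -0.13, adjusted p 0.572), and the erythroid factor KLF1 rose by 0.44 (adjusted p 0.00977, but 0.366 in a fit of all 8 groups). Of 30 megakaryocyte and platelet genes 12 rose and 12 fell against each control (80.0% called). PPBP, a platelet chemokine, rose to 372, 411 and 402, against 12.9, 22.6 and 10.2 in naive cells, and the tetraspanin CD9 (log2 3.76) and the platelet tubulin TUBB1 (log2 1.96) rose with it. TREML1, a platelet granule receptor, had 85 reads in the line and none in naive cells, at least 25.5-fold higher against 3 reads over the group. F13A1, a clotting factor subunit, went the other way, at 26.4, 42.3 and 20.3 against 581, 621 and 569.7, and ITGA2B fell as given above (log2 -0.78).

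Genes of mast cells, basophils and eosinophils were much lower. Of 15 tested, 14 fell and none rose (93.3% called, against 37.0% of all genes; median log2 -3.41), and 13 of 15 fell against DMSO cells (median -1.88). PRG2, the eosinophil major basic protein, was at 7.29, 7.05 and 6.10 in the line, 636, 706 and 719 with DMSO and 1623, 1517 and 1699 in naive cells (log2 -7.69, adjusted p 8.69e-09). CPA3, a mast cell protease, was at 30.1, 33.2 and 36.6, against 928, 805 and 763 with DMSO and 3269, 2374 and 2534 in naive cells, and SIGLEC6, a mast cell lectin, averaged 20.1 ± 9.75 against 1634 ± 154. These 3 genes did not overlap between the line and either control, as held for 50.3% of all genes against naive cells and 52.8% against DMSO. PRG2 was named among the largest falls, which had to show no overlap with naive cells. FCER1A, the IgE receptor alpha chain, kept a level of 2646 ± 263 against 5563 ± 969 (log2 -1.06). HDC, which makes histamine, was at 62844, 69887 and 65237 in the line and 87069, 178813 and 181021 in naive cells, with naive library 1 nearest to the line (log2 -1.10, adjusted p 0.00624). Of 16 granulocyte and monocyte genes 2 rose and 12 fell against naive cells (median -1.91), and 2 of 17 rose and 13 fell against DMSO (median -1.75). CD33 was at 620.0, 691 and 666 against 4549, 4967 and 5131 with DMSO and 6136, 6603 and 6077 in naive cells, ITGAX, an integrin chain of monocytes, at 295, 272 and 239.9 against 1657, 3929 and 4101 in naive cells, and SPI1, the myeloid factor PU.1, averaged 780.2 ± 184 against 3062 ± 139.

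**Figure D3:**
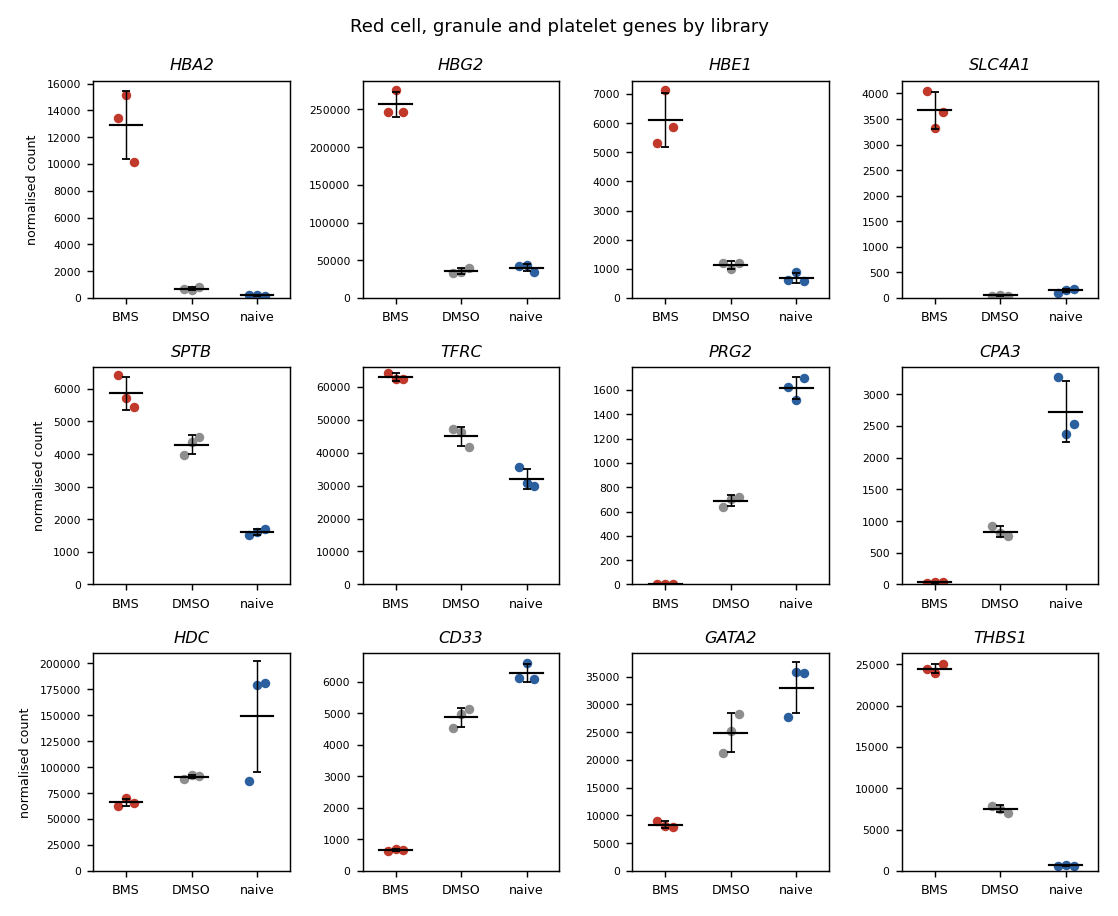
Normalised counts (linear axes from 0) of 12 lineage genes in the BMS911543 persistent line, naive cells given DMSO for 4 h and untreated naive cells, drawn as 3 library points, mean bar and SD whiskers. Globins, SLC4A1, SPTB, TFRC and THBS1 are highest in the line, PRG2, CPA3, CD33 and GATA2 lowest, and naive library 1 lies apart from the other naive libraries at HDC.

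Genes of the ATF4 programme fell almost throughout. ATF4 is a transcription factor whose protein rises when the kinases of the integrated stress response act, and its targets import amino acids and make serine and asparagine. Of 31 list members tested, 30 fell and none rose (96.8% called, against 37.0% of all genes and 20.5% lower; median log2 -1.54). FGF21 and NUPR1 were too low to test. ASNS, asparagine synthetase, was at 376, 441 and 418 in the BMS911543 line, 2082, 2062 and 1887 with DMSO and 4123, 3896 and 3477 in naive cells (log2 -3.22, SE 0.11, adjusted p 3.01e-08). The first and second enzymes of serine synthesis, PHGDH and PSAT1, were at 1050.4, 945 and 876 and 788, 611 and 779.6 in the line, against 16946, 15432 and 12806 and 8385, 6101 and 6727 in naive cells. For these genes the line was lowest and DMSO cells lay between, with DMSO means of 7074 for PHGDH and 3571 for PSAT1. The mitochondrial folate enzyme ALDH1L2 (log2 -4.07), the hormone STC2 (log2 -4.11) and the pseudokinase TRIB3 (log2 -2.74) fell too, as did ATF4 itself, at 12740.4 ± 947 against 22573 ± 1636 (log2 -0.83). ATF5 was the member that did not pass (log2 -0.23, adjusted p 0.0969; 0.0362 without naive library 1).

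The vehicle group divides this list. Against DMSO cells 17 of 31 members were lower and 9 higher (median log2 -0.34; over all genes 22.4% lower and 21.7% higher). CHAC1, which degrades glutathione, was at 132, 123 and 97.6 in the line and 905, 924 and 981 in naive cells, but DMSO cells held 23.6, 39.4 and 49.0, so the line was higher than DMSO by 1.68 on the log2 scale. DDIT4, an mTORC1 inhibitor, and DDIT3, the factor CHOP, were likewise below naive cells (log2 -1.50 and -1.78) and above DMSO cells (log2 1.72 and 1.22). ATF4 itself averaged 0.564 of the naive mean in the line and 0.383 with DMSO. ASNS, PHGDH and PSAT1 were below both controls. PSPH, also in the list, lay near DMSO cells, at 0.652 of the naive mean in the line and 0.693 with DMSO. Against the other persistent lines 29 of 32 members were lower and 1, ATF5, higher (median -1.38, with 31.2% of 18624 genes called and 17.8% lower). INHBE, also an ATF4-responsive gene in human cells, averaged 3.21 ± 1.92 in the line, against 464, 976 and 569.5 in the CYT387, INC424 and SAR302503 lines.

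A motif that ATF4 and C/EBP factors share, TGATGNAAN read on both strands, was sought in the 250 bases before each gene's start in RefSeq (GRCh38.p14, a newer build than that of the files). It occurred in 6 of the 27 list genes with a window (22.2%) and in 1057 of 27305 genes in all (3.87%). The 3 windows shown are those of the listed genes with a match whose fall was largest among those tested. Capitals mark the motif as it reads on the gene's strand, 68 bases before the start in ASNS, 210 in CHAC1, where it lies on the opposite strand, and 16 in JDP2. JDP2, a bZIP repressor, was at 241 ± 34.2 in the line and 762 ± 46.9 in naive cells (log2 -1.66). As a ratio to the naive mean JDP2 was 0.317 in the line and lower, 0.186, with DMSO. The windows are chr7:97872409-97872658 on the minus strand for ASNS, chr15:40953221-40953470 on the plus strand for CHAC1 and chr14:75427772-75428021 on the plus strand for JDP2. A match describes letters in this window and no binding.
ASNS: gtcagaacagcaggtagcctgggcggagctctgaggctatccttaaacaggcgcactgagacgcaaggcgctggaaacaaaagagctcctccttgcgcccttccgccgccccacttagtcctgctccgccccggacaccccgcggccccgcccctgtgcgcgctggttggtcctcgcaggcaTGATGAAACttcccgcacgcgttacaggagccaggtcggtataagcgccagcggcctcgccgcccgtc
CHAC1: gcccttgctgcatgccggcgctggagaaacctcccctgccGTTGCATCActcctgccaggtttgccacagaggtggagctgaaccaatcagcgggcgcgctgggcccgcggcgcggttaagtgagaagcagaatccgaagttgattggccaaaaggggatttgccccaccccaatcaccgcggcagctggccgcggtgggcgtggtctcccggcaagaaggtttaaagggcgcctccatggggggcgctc
JDP2: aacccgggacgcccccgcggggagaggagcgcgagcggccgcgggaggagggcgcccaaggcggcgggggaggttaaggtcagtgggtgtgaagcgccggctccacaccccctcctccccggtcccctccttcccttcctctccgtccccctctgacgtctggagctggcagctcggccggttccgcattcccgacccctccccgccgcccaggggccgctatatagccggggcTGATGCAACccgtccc

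**Figure D4:**
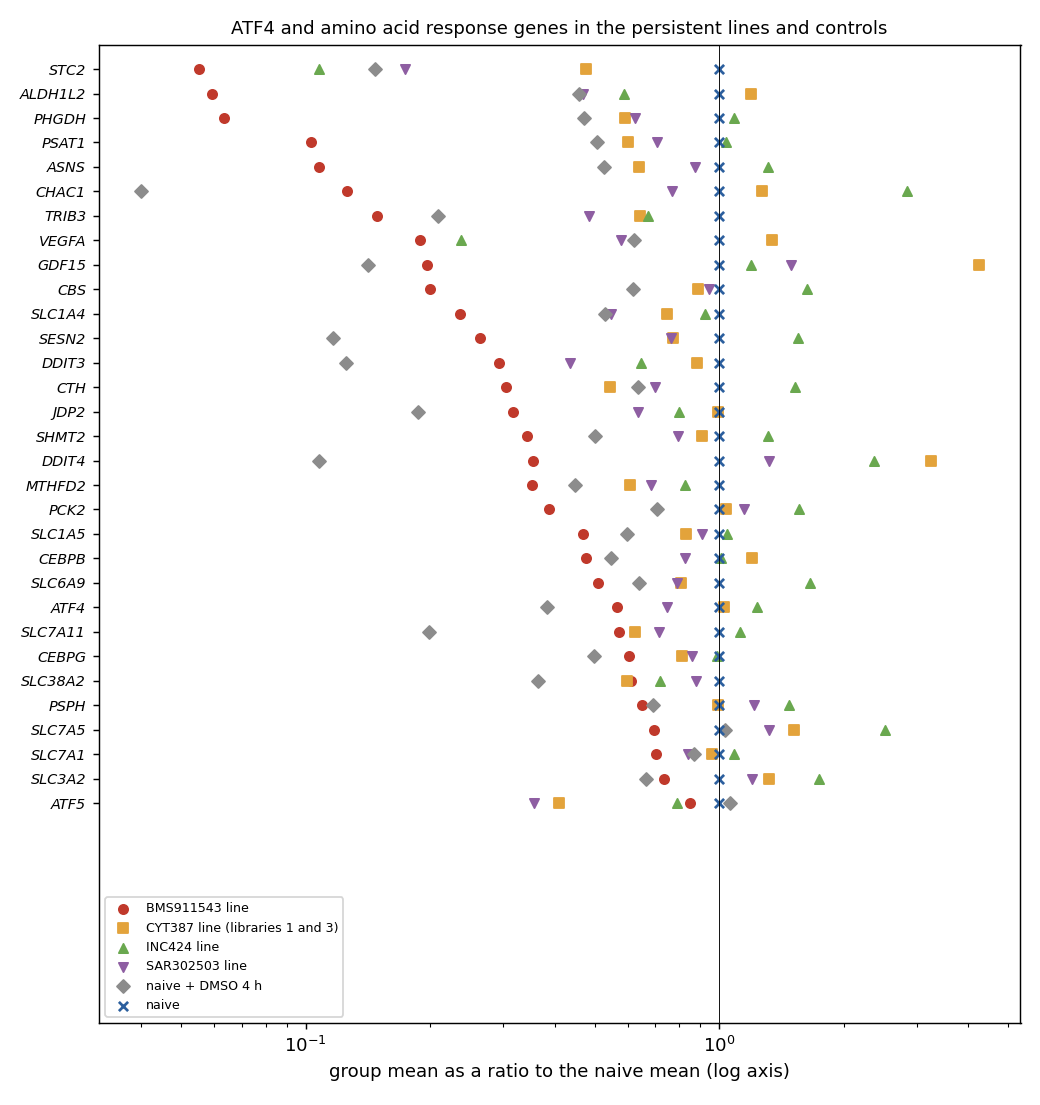
Group mean of each ATF4 list member as a ratio to its naive mean (log axis; the line at 1 is the naive mean), for the BMS911543, CYT387 (libraries 1 and 3), INC424 and SAR302503 persistent lines, DMSO and naive cells. Genes run down from ATF5 at the bottom to STC2 at the top, and the BMS911543 points lie left of 1 throughout, while DMSO cells lie lower still for CHAC1, DDIT4, DDIT3 and SESN2, among others.

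Charging of tRNAs and folding in the endoplasmic reticulum moved the same way on a smaller scale. Of 20 aminoacyl-tRNA synthetases 1 rose and 13 fell against naive cells (median log2 -0.44; 20.5% of all genes lower), and 1 rose and 9 fell against DMSO (median -0.14; 22.4% of all genes lower). WARS, which charges tryptophan, was at 4463, 4019 and 3980.5 in the line, 17509.9, 18407 and 18492 with DMSO and 41780.1, 32273 and 32637 in naive cells (log2 -3.09), and the alanine, cysteine and glycine enzymes AARS, CARS and GARS fell (log2 -1.27, -1.26 and -0.99). AARS (log2 -0.15, adjusted p 0.106) and CARS (log2 -0.04, adjusted p 0.679) did not pass against DMSO. Of 21 endoplasmic reticulum chaperone and stress genes none rose and 15 fell against naive cells (median -0.49), and 3 rose and 9 fell against DMSO (median -0.14), among those that fell against naive cells the unfolded protein factor XBP1, at 6794 ± 707 in the line, 5631 ± 220.1 with DMSO and 19275 ± 2426 in naive cells.

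Of 12 MHC class II antigen presentation genes 7 rose and 1 fell against naive cells (median log2 0.40, with 16.5% of all genes higher and 20.5% lower). Against DMSO cells 9 of 12 rose and none fell (21.7% of all genes higher). Against the other lines 10 of 13 rose and none fell (13.5% of all genes higher). The rise of HLA-DMB against naive cells lost its call without some single libraries (adjusted p up to 0.121). The rises of HLA-DQA1 and HLA-DRB5 lost theirs in a fit of all 8 groups (adjusted p 0.0899 and 0.113), as did the fall of CD74 (adjusted p 0.324). HLA-DRA averaged 3159 ± 332 in the BMS911543 line, 1682 ± 123 with DMSO and 2319 ± 334 in naive cells (log2 0.45; the call was lost without some single libraries, adjusted p up to 0.0752). In the other lines it averaged 9821 with CYT387, 472 with INC424 and 144 with SAR302503. So the line lay between the CYT387 line and the INC424 and SAR302503 lines. CIITA, the master regulator of class II genes, was at 754 ± 97.3 in the line and 651 ± 71.9 in naive cells (adjusted p 0.275), and averaged 1949.9, 59.8 and 46.6 in the CYT387, INC424 and SAR302503 lines. Of 15 class I genes 2 rose and 7 fell against naive cells, and 4 rose and 4 fell against DMSO (median -0.12): HLA-E was at 9052, 8912 and 9194 in the line, 10043, 10995 and 11979 with DMSO and 31566, 30083 and 34412 in naive cells, and HLA-B fell against naive cells (log2 -1.11) but did not pass against DMSO (log2 -0.20, adjusted p 0.0949). HLA genes resemble each other, and reads may be split between them.

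Interferon-stimulated genes split, with 8 of 33 higher and 11 lower than in naive cells (median log2 -0.08), and 8 of 34 higher and 8 lower than with DMSO (57.6% and 47.1% called, against 37.0% and 44.1% of all genes). IFIT2 and IFIT1, RNA-binding antiviral proteins, were at 760.5, 963 and 886 and 271, 330.2 and 376 in the line, against 185, 202 and 128 and 62.1, 83.0 and 69.3 in naive cells, and IFIT3 rose by 1.37. All 3 were also above DMSO cells (log2 2.13, 2.41 and 1.01). BST2, tetherin, fell to 922 ± 101 against 3214 ± 536. NF-kB genes also divided, with 4 of 18 higher and 6 lower than in naive cells, and 6 of 19 higher and 4 lower than with DMSO. The IkB family gene NFKBIZ fell (log2 -1.22). The cytokine gene IL1B fell to 3205, 3089.6 and 3229, against 8959, 7195 and 6992 in naive cells, but did not pass against DMSO (log2 0.05, adjusted p 0.592).

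Growth gene lists differed between the controls. Of all genes tested 37.0% were called against naive cells, 44.1% against DMSO and 31.2% against the other lines. Of 29 DNA replication genes 8 rose and 4 fell against naive cells (41.4% called), but 24 fell and none rose against DMSO cells (82.8% called), and 15 fell and 1 rose against the other lines. For 28 genes of G2 and M phase 8 rose and 4 fell against naive cells, 9 rose and 6 fell against DMSO, and 19 fell and none rose against the other lines (median log2 -0.50). RRM2, a subunit of ribonucleotide reductase, was at 2741, 2617 and 2578 in the line, 4606, 4424 and 4209 with DMSO and 2149.6, 1824 and 1832 in naive cells, above the naive level and below the DMSO level. Of 30 ribosome biogenesis genes 9 rose and 2 fell against naive cells, 23 fell and none rose against DMSO, and 12 rose and 3 fell against the other lines. Of 29 cytosolic ribosomal protein genes none rose and 13 fell against naive cells (median -0.38), and 6 rose and 1 fell against DMSO, fewer than the share over all genes. Against the other lines 19 of these 29 fell and none rose (65.5% called, median -0.59). CCND1, a G1 cyclin, fell to 243, 234 and 229.7, against 606, 589.8 and 500.4 in naive cells, and CDKN1A, the inhibitor p21, rose to 1053, 1025 and 1021, against 485, 487 and 489. MYCL1, a MYC relative, was at 19.1, 7.05 and 28.5 in the line, 16.7 ± 3.20 (mean ± SD) with DMSO and 328, 259.9 and 337 in naive cells, so its fall (log2 -4.19) was not seen against DMSO (adjusted p 0.943).

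Of 16 genes of the BCL2 family, which holds survival and death genes, 2 rose and 7 fell against naive cells (median log2 -0.31). Against DMSO 3 rose and 3 fell (median -0.05). Over all genes, 16.5% were higher and 20.5% lower than in naive cells, and 21.7% higher and 22.4% lower than with DMSO. MCL1 was at 5644, 5677 and 5825 in the line, 6245, 6035 and 5722 with DMSO and 11489, 10238 and 10765 in naive cells, and BCL2 at 21.9, 69.5 and 24.4 against 284, 156 and 166 in naive cells. MCL1 did not pass against DMSO cells (log2 -0.07, adjusted p 0.472), whereas BCL2 was below them (log2 -1.73). Of 21 p53 target genes 7 rose and 8 fell against naive cells, and 9 rose and 4 fell against DMSO. Of 14 genes for D cyclins, CDKs and CDK inhibitors 3 rose and 5 fell against naive cells, and 5 rose and 5 fell against DMSO. Of 12 MYC network genes 1 rose and 2 fell against naive cells, whereas 7 rose and 1 fell against DMSO (66.7% called, against 44.1%).

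Metabolic lists showed smaller and mixed changes, where 16.5% of all genes tested were higher and 20.5% lower than in naive cells, and 21.7% higher and 22.4% lower than with DMSO. NRF2 and pentose phosphate genes rose in 11 of 18 cases and fell in 2 against naive cells (median log2 0.50), and rose in 8 and fell in 1 against DMSO, and the malic enzyme ME1 rose by 0.97. Of 31 glycolysis and hypoxia genes 5 rose and 15 fell against naive cells (median -0.34), but 13 rose and 7 fell against DMSO (median 0.11). CA9, a hypoxia-induced carbonic anhydrase, fell to 9.76 ± 1.58, against 288 ± 31.7 in naive cells, but DMSO cells held 15.8 ± 6.66, and EGLN3, an oxygen-sensing hydroxylase, rose to 218, 211 and 201, against 5.86, 12.9 and 2.04 in naive cells. VEGFA was at 3980.2, 3971 and 3742 in the line and 13177, 23294 and 25475 in naive cells. Of 25 cholesterol synthesis genes 7 rose and 4 fell against naive cells, and 10 rose and 2 fell against DMSO; HMGCS1, an early enzyme of the pathway, rose to 4655, 4922 and 4876, against 1962, 1968 and 1826 in naive cells. Mitochondrially encoded genes were higher in 7 of 13 cases and lower in none against each control (median 0.54 against naive cells and 0.35 against DMSO). MT-CYB, cytochrome b, was at 60011, 53913 and 43582 in the line and 35805, 24249 and 24816 in naive cells, with naive library 1 nearest to the line. Mitochondrial RNA can vary with RNA handling, and its part in the other results was not tested.

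Receptor and regulator genes of other pathways added single large changes. ABCG2, a drug efflux pump, was at 255 ± 30.0 in the line, 35.4 ± 7.51 with DMSO and 48.2 ± 24.1 in naive cells (log2 2.49); ABCB1, the other classic efflux pump, was at 893 ± 65.4 against 1077 ± 137 and did not pass (adjusted p 0.123). Of 15 ABC transporter genes 3 rose and 4 fell against naive cells, and 8 rose and 3 fell against DMSO. Over all genes, 16.5% were higher and 20.5% lower than in naive cells, and 21.7% higher and 22.4% lower than with DMSO. In the TGF-beta and BMP list, 3 of 23 rose and 8 fell against each control: SMAD6, an inhibitory SMAD, rose to 1079.6, 946 and 1011, against 103, 159.6 and 182 in naive cells, and SMAD3 to 3150.4, 3122 and 2919, against 836, 818 and 885, while ID4, a helix-loop-helix inhibitor, fell to 0.912, 6.04 and 1.02, against 166, 133 and 166. SMAD6 did not pass against DMSO (log2 0.27, adjusted p 0.0524), and SMAD3 did (log2 3.34). IGF1R, the insulin-like growth factor receptor, rose to 9206, 8468 and 8174, against 3697, 4459.7 and 4425 in naive cells, and IGFBP4 fell to 2544 ± 153, against 11576 ± 811. Among FOXO and PI3K-repressed genes, 2 of 15 rose and 7 fell against naive cells, whereas 12 rose and none fell against DMSO (median 0.90). TXNIP, a glucose-sensing FOXO target, was at 46215, 46025 and 49272 in the line, 10481, 10337 and 10169 with DMSO and 63251, 62018 and 66977 in naive cells (log2 -0.44 against naive cells, adjusted p 0.00797; 0.0509 without BMS911543 library 2).

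The remaining lists are read against the same shares over all genes, 37.0% called against naive cells and 44.1% against DMSO. Of 13 stem and progenitor genes 2 rose and 4 fell against naive cells, whereas 7 of 12 rose and 3 fell against DMSO (median log2 0.48): CD34, the surface marker of progenitors, was at 14553, 13096 and 13334 in the line, 24099.6, 26444 and 26585 with DMSO and 34419, 29505 and 31088 in naive cells (log2 -1.21), and the zinc finger factor MECOM rose (log2 0.79). Of 20 HOX cluster genes 3 rose and 5 fell against naive cells, and 7 of 22 rose and 3 fell against DMSO. Of 21 DNA methylation and Polycomb genes 4 rose and 7 fell against naive cells, and 6 rose and 7 fell against DMSO. Of 11 histone genes none rose and 3 fell against naive cells, and 1 rose and 5 fell against DMSO. Of 19 cytosolic heat shock genes 3 rose and 2 fell against naive cells, but 1 rose and 12 fell against DMSO (68.4% called; median -0.46). Of 29 respiratory chain genes 8 rose and 2 fell against naive cells, and 4 rose and 3 fell against DMSO. Of 9 cancer-testis genes tested, 2 rose and 3 fell against naive cells, and 3 of 11 rose and 7 fell against DMSO; MAGEA1 was at 905, 907 and 808 in the line and 77.4, 174 and 106 in naive cells, and CTAG2 had no read in the line, at least 24.9-fold lower against 3 reads over the group.

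**Figure D5:**
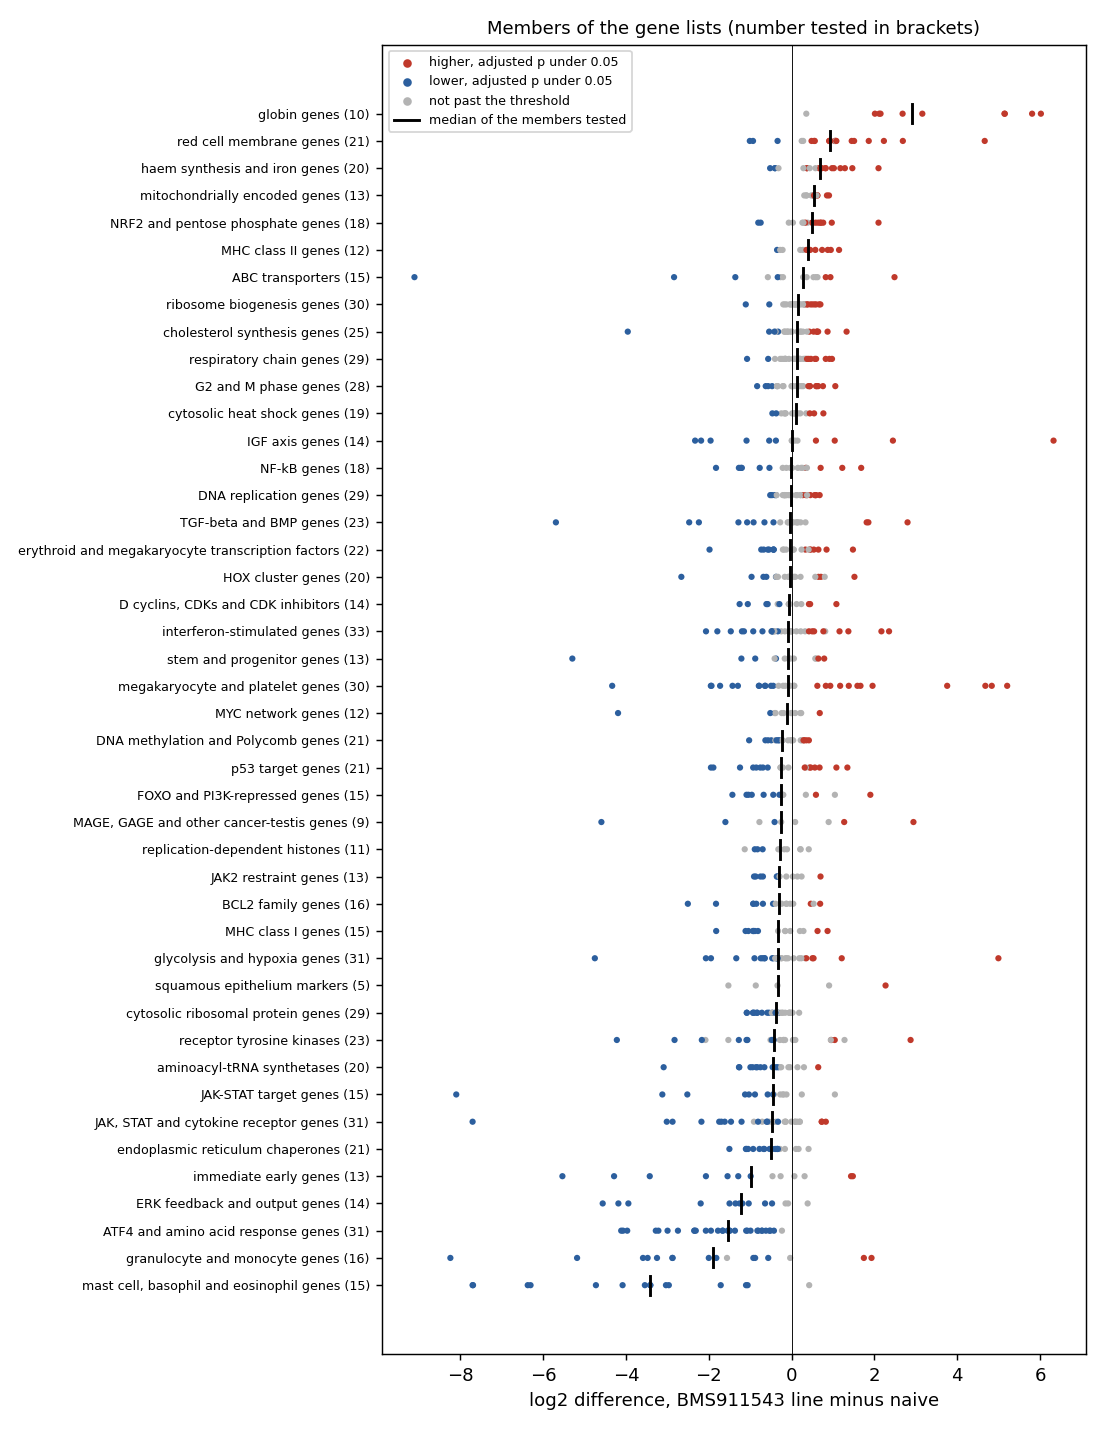
Log2 differences, BMS911543 persistent line minus naive, for every tested member of each list with at least 5 tested (number in brackets), with called members in red (higher) or blue (lower), others grey, and the median as a black tick. Medians run from -3.41 for mast cell, basophil and eosinophil genes to 2.92 for globin genes, against 0.02 over all genes.

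Set against the mean of the other persistent lines, 5820 of 18624 genes tested (31.2%) differed, 2512 higher (13.5%) and 3308 lower (17.8%); with CYT387 library 2 included the count was 2866, and without BMS911543 library 2 it was 3577, and without SAR302503 library 3 it was 7580. Of 8 squamous markers tested 6 were lower than in the other lines and none higher (median log2 -3.30), and their part in this comparison was not tested. These comparisons also use the same BMS911543 libraries. WSCD2, COL20A1, GRHL3, ITLN1, CILP, MAL, NPY1R and GPT lay furthest above the mean of the other lines. In the CYT387 (libraries 1 and 3), INC424 and SAR302503 lines MAL averaged 36.5, 828 and 26.3. For ITLN1 these means were 42.4, 559 and 15.3, and for NPY1R 230, 123 and 6.22. COL20A1, a collagen, was at 2587, 2145 and 1973 in the BMS911543 line, and the other lines held 1.27 to 149 (log2 5.88, adjusted p 2.39e-08). GPT, alanine aminotransferase, was at 348, 309 and 245, against 12.5 to 63.4. DPPA4, a pluripotency gene, had 2 reads in the BMS911543 line and 476, 77.0 and 753 on average in the CYT387, INC424 and SAR302503 lines, a ratio of 621 in their favour with an interval of 172 to 5127. BSPRY averaged 1.25 ± 1.38 in the line, against 308, 18.8 and 182. COL11A1, CLCA1, FREM2, COL4A6 and PKP1 were lower too; PKP1, an epithelial plakophilin, held 20.2 to 785 in the other lines with the highest value in SAR302503 library 3 (log2 -5.22, and -4.91 without that library). The CYT387, INC424 and SAR302503 means were 21.5, 2556 and 32.3 for COL11A1, and 20.3, 1966 and 16.2 for the mucin-associated CLCA1, so the INC424 line carried most of both. SLC4A1 exceeded the other lines by 2.20 and TFRC by 1.32 on the log2 scale, while HBG2 (log2 0.23, adjusted p 0.206), HBE1 (log2 -0.27, adjusted p 0.148) and TUBB1 (log2 -0.08, adjusted p 0.49) did not pass the threshold. SOCS3 (log2 -3.08) and PIM1 (log2 -1.96) were lower than that mean, with SOCS3 averaging 461 in the BMS911543 line, 6789.6 with CYT387, 1057 with INC424 and 8401 with SAR302503.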

How the data were processed

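RNA-seq reads of SET2 cells were aligned by the authors with BWA 0.7.5.1 to hg19 (GRCh37), counted per gene with HTSeq 0.5.3p3 and scaled with DESeq 1.10.1, per the submitters' processing notes. The deposited values are normalised counts (signal scaled by a size factor per library, not raw counts), and 1 library of the BMS911543 line was run on 2 lanes. If counting used strand is not given in the sources used here, so genes that overlap or have antisense partners are uncertain. Whole reads were recovered by dividing each value by the smallest step of its library, and every value came out whole within 0.01; in 3 libraries, including library 2 of the BMS911543 line, the step is within 0.01 of 1, so there the test says little. Intervals and bounds from reads cover counting error only, at 95% (Clopper-Pearson), with 3 reads as the floor.

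Values were tested as log2(value + 1), so fold changes of low genes are understated, with limma 3.58.1 (R 4.3.3; trend, Benjamini-Hochberg adjusted p over all genes tested, threshold 0.05), keeping genes at 10 or more in at least 3 of the libraries compared. The BMS911543 line was set against naive cells, against DMSO at 4 h and against the equal-weighted mean of the other 3 lines (11 libraries). The step was tested on simulated data. Alternatives were other pseudocounts, filters and scalings, edgeR 4.0.16, DESeq2 1.42.0, pooled fits, the replicate number as a block and leaving out each library. Python 3.11.15, pandas 2.3.3, scipy 1.17.1 and matplotlib 3.10.9 did the rest.

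The comparison and the 46 gene lists (918 genes, 819 of them tested) were chosen with earlier results of these data known. Genes named are the 12 largest rises and 12 largest falls without overlap and with a mean of at least 50, the 5 largest each way with a mean of at least 5000, up to 4 members a list past the threshold (up to 2 where none passed), JAK1, JAK2, JAK3, TYK2, STAT5A and STAT5B, and the 8 largest differences each way against the other lines. A further 52 list members were chosen after their values were seen. Promoter windows are RefSeq sequences of GRCh38.p14, read by gene symbol. Some genes are not reported here.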

Additional observations from a re-analysis of the deposited data

Results flagged for a closer look

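In 3 named genes every library of the BMS911543 line lay on the opposite side of the naive libraries from every library used of the other lines. The search covered only named genes called against both naive cells and the other lines, and left out CYT387 library 2. It gives no count over all genes tested. CDKN2D, an inhibitor of the cyclin D kinases, was at 577 to 757 in the BMS911543 line, 1388 to 3869 in the other lines and 872 to 1116 in naive cells, and the difference from the mean of the other lines was -1.53 on the log2 scale (limma adjusted p 3.18e-06). WSCD2, a sulfotransferase-like gene, was at 311 to 399 in the BMS911543 line, 0 to 14.7 in the other lines and 18.8 to 36.7 in naive cells (log2 6.69 against the other lines, adjusted p 2.9e-06). BCL2L1, which encodes the survival protein BCL-XL, was at 4264.5 to 4508 in the BMS911543 line, 6793 to 9899 in the other lines and 5773 to 6230 in naive cells (log2 -0.91 against the other lines, adjusted p 2.95e-05). Against DMSO cells BCL2L1 did not pass (log2 -0.17, limma adjusted p 0.13, and 0.031 without DMSO library 1).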

How the results depend on the processing

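The count of genes called against naive cells, 6450, was 5416 to 6696 under the other pseudocounts, filters, scalings and tools, 4925 in a fit of all 8 groups and 6924 in that fit without CYT387 library 2. Upper-quartile scaling gave 49.3% of calls higher, against 44.5% in the reported fit. Leaving out 1 library gave 4427 (without BMS911543 library 2) to 7592 (without naive library 1) against naive cells, 3577 (without BMS911543 library 2) to 7580 (without SAR302503 library 3) against the other lines, and 6116 to 7097 against DMSO cells. Against the other lines the count of 5820 fell to 2866 with all 12 libraries, and was 4776, 4211 and 6184 against the CYT387, INC424 and SAR302503 lines singly. With the replicate number as a block the counts were 5579 against naive cells, 5897 against the other lines and 6727 against DMSO cells. Deviations of same-numbered BMS911543 and naive libraries correlated at -0.0847 to 0.00251 (others -0.0155 to 0.102). For BMS911543 and DMSO libraries they correlated at -0.188 to -0.0292 (others -0.101 to 0.170). Same-numbered libraries thus showed no shared deviation, which does not tell whether they were prepared together. Of 4793 values of 258 named genes against naive cells, 113 lost their call, 3 gained one and none changed direction; the 3 gains were JAK3, MYC and ATF5 without naive library 1. HLA-DRA, TAL1 and FOSB lost theirs without single libraries, and CCND1 in the fit of all 8 groups (adjusted p 0.287); the cause was not tested. With a pseudocount of 10 the log2 differences of low genes shrank, to 4.64 for CILP and 3.66 for TRPC6, by construction. Medians of the listed genes ran from -1.60 to -1.50 for ATF4 genes, 2.40 to 3.05 for globins, -3.60 to -3.20 for mast cell, basophil and eosinophil genes and -2.28 to -1.11 for granulocyte and monocyte genes. The 7645 genes under the filter on low values could not be tested at this depth.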
